A study of Capra hircus with 4 samples.

Results

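Class x transcripts are assembled long non-coding RNAs (lncRNAs) that overlap an exon of a reference gene from the opposite strand. They were chosen from the authors' deposited table of all lncRNAs by their class code alone, which gave 3171 of 226416 transcripts, or 1.4%. Class u, the intergenic transcripts, held 222573. Class j, which shares a splice junction with a reference transcript, held 581, and class o, with other overlap of an exon, held 91. In the table, each class x transcript is paired with a reference gene, called its host gene here, and 2635 host genes were named.

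The study compared receptive endometrium, the uterine lining at gestational day 15 (2 libraries), with pre-receptive endometrium at gestational day 5 (2 libraries). Per the labels, all libraries came from pregnant, naturally mated Xinong Saanen dairy goats of 24 months after synchronised oestrus, 20 goats in all. RNA was depleted of ribosomal RNA and the libraries were strand-specific, which is what allows an antisense transcript to be told from its host. Nothing in the labels says whether a library was 1 goat or a pool. The deposited comparison names its sides set T and set C, and no label or header used here ties either letter to a stage, so each direction below is set T against set C. Columns of single libraries carry the letter T or C in their names but match no sample label, and they were not used here. Levels, the spread between libraries and the endometrial markers are therefore not given, and the depth is unknown.

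Antisense lncRNAs are transcribed across a gene in the direction opposite to its own transcript. Some are known to act on their host in cis, by transcription through its promoter, by recruiting chromatin regulators or by pairing with its RNA, and others have no known function. In the uterus of early pregnancy, the host genes of interest are those of hormone response, gland secretion, adhesion and immune control.

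The first feature of the class x transcripts was the size of the loci they lay in. The median deposited locus was 20.3 kb (95% order-statistic interval 18.9 to 21.9), with quartiles of 8.79 and 54.6 kb, against a median of 1.41 kb and quartiles of 1.04 and 2.04 kb in class u. Loci of at least 20 kb held 50.1% of class x transcripts and 2.13% of class u transcripts, and loci of at least 100 kb held 15.5% and 0.503%. Only 11.9% of class x transcripts lay in a locus no longer than 4.82 kb, the 95th percentile of class u.

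These lengths belong to the locus, not to the antisense RNA. The deposited locus is shared by all transcripts assembled over the same stretch: in 107 of 107 pairs of a class x transcript with a listed transcript of its host gene, the locus was identical. Class j transcripts, which lie on the strand of the gene, had loci of similar size, with a median of 26.0 kb (22.8 to 28.5) and quartiles of 11.5 and 54.4 kb. The long loci of class x therefore include the host gene, and no length of the antisense RNA itself was available from the columns used.

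**Figure D1:**
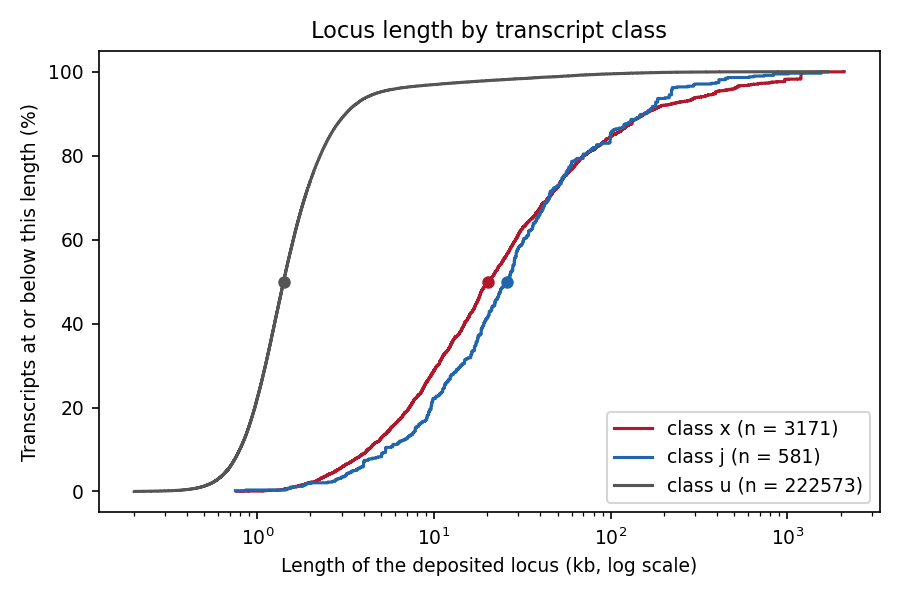
Cumulative share of transcripts (vertical axis, %) by length of the deposited locus (horizontal axis, kb, log scale) for classes x, j and u. The curves of class x (median 20.3 kb, dot) and class j (26.0 kb) lie close together, far to the right of class u (1.41 kb).

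The longest class x locus held TCONS_00084163, antisense to FLRT3, a leucine-rich repeat adhesion protein, and spanned 2097.4 kb (chr13:6961968-9059380). It was followed by TCONS_00293319 antisense to LOC102190851 (1682.8 kb, chr27:2080036-3762837) and by TCONS_00250931 antisense to FHIT, which encodes a diadenosine triphosphate hydrolase (1559.6 kb, chr22:39940761-41500395). The locus of TCONS_00215595, antisense to LOC102184195, spanned 1470.8 kb (chr20:18821422-20292196) and also held a transcript antisense to PDE4D, a cAMP phosphodiesterase. TCONS_00309454 was antisense to NRG3, a ligand of the receptor ErbB4, in a locus of 1251.0 kb (chr28:34406244-35657243).

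The order of the transcript numbers was set beside the antisense label. Both come from the same assembly, so a match between them is not independent evidence of antisense transcription. On each chromosome the numbers run along the positions from start to end and then start again, in up to 3 runs, and transcripts of one gene on opposite strands fall into different runs. Class x transcripts and class j or o transcripts of the same gene and locus were in different runs in 109 of 109 pairs, from 74 genes. Class x transcripts and the listed transcripts of their host genes were in different runs in 107 of 107 pairs. All class x transcripts of a host gene lay in 1 run for each of the 2635 host genes. Of the class x transcripts, 1551 (48.9%) were in the first run and 1620 (51.1%) in the second, and 0 in the third, which held 117 class u transcripts. The runs were read from the numbering, since no strand column was used here, and they give relative strand only.

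Most host genes had a single antisense transcript. Of the 2635, 2235 (84.8%) had 1 class x transcript, 349 had 2, and 51 had 3 or more. The 3171 transcripts fell into 3141 assembled gene identifiers, 3155 start groups and 2611 distinct loci, so nearly every antisense transcript was assembled as a unit of its own. Loci with 1 class x transcript had a median length of 16.9 kb, those with 2 had 24.3 kb, and the 54 loci with 3 or more had 58.0 kb.

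CTNNA3, the gene of alpha-T-catenin, which links cadherins to actin, had the most, with 33 class x transcripts. LRRTM3, a synaptic adhesion gene, had 11 in the same 1194 kb locus (chr28:20756460-21950024), so that 1 locus held 44 of the 95 class x transcripts of chromosome 28. CTNNA3 antisense transcripts were in the first run and LRRTM3 antisense transcripts in the second. IMMP2L, a subunit of the mitochondrial inner membrane peptidase, and LRRN3, a leucine-rich repeat gene of neurons, formed a like pair on chromosome 4, with 6 and 7 transcripts in opposite runs. ZHX3, a zinc finger and homeobox repressor, had 6 and LOC102182148 had 13 in one locus of 132.4 kb on chromosome 13, again in opposite runs. LOC102181447 had 12 beside 1 of SUPT3H, a subunit of the SAGA coactivator complex, on chromosome 23. TMEM126A, a mitochondrial membrane protein gene, had 7 within only 17.1 kb (chr29:9001984-9019050). LBX1, a homeobox gene of migrating muscle precursors and listed in the files as LOC102178695, had 6, and LOC102185246 had 5.

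**Figure D2:**
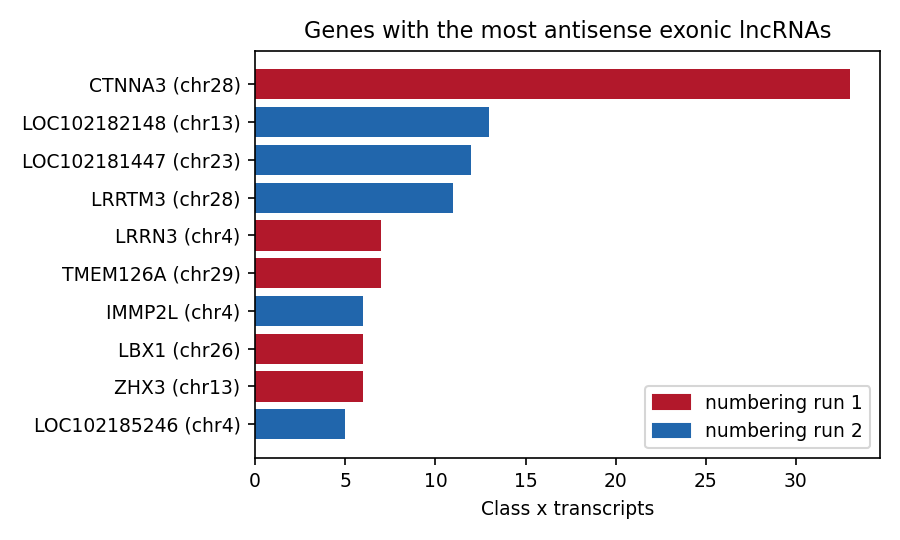
Number of class x transcripts (horizontal axis) for the 10 host genes with the most, with the chromosome in brackets and the numbering run, a stand-in for relative strand, as colour. CTNNA3 has 33 and the next gene 13, and CTNNA3 and LRRTM3, which share a locus, lie in opposite runs.

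In all, 23 loci held class x transcripts of more than 1 host gene, with 143 transcripts between them. In 19 of the 23 the transcripts of the different hosts lay in different runs, and in 4 in the same run. In those 19 loci, a transcript antisense to one host runs in the same direction as the other host, as for CTNNA3 and LRRTM3. Transcripts of other lncRNA classes shared loci with class x as well: 495 class u transcripts, which are 0.222% of that class, in 221 loci, and 111 class j transcripts, which are 19.1% of that class, in 78 loci. Class j transcripts were thus present in 2.99% of the class x loci.

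Class x transcripts were found on 30 of the 31 chromosomes in the table, at 14.0 per 1000 transcripts over all of them. The exception was the mitochondrial chromosome, which held only 2 transcripts of any class. Chromosome 18 had the highest value, 33.4 per 1000 (95% Wilson interval 28.9 to 38.5, 183 of 5484 transcripts). Chromosomes 29, 23 and 28 followed with 30.5 (25.7 to 36.1), 30.4 (25.7 to 36.1) and 29.6 (24.3 to 36.1), and their intervals overlapped that of chromosome 18. Chromosome 12 had the lowest value, 5.1 (3.75 to 6.94, 40 of 7841), and the X chromosome had 11.7 (9.96 to 13.8). The intervals cover counting error only, and neighbouring transcripts are not independent. With each locus counted once, chromosome 18 had 33.7 per 1000 loci and chromosome 28 had 15.7, which is the value that rested on the CTNNA3 and LRRTM3 locus. Classes j and o, which also overlap reference genes, together had 6.02 per 1000 transcripts on chromosome 18 and 6.42 on chromosome 23. They had 2.58 on chromosome 29, 2.49 on chromosome 28 and 2.3 on chromosome 12. Chromosome 22 had 6.91, beside 14.7 of class x. Over the chromosomes, Spearman's rho between the class x values and the class j and o values was 0.457.

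**Figure D3:**
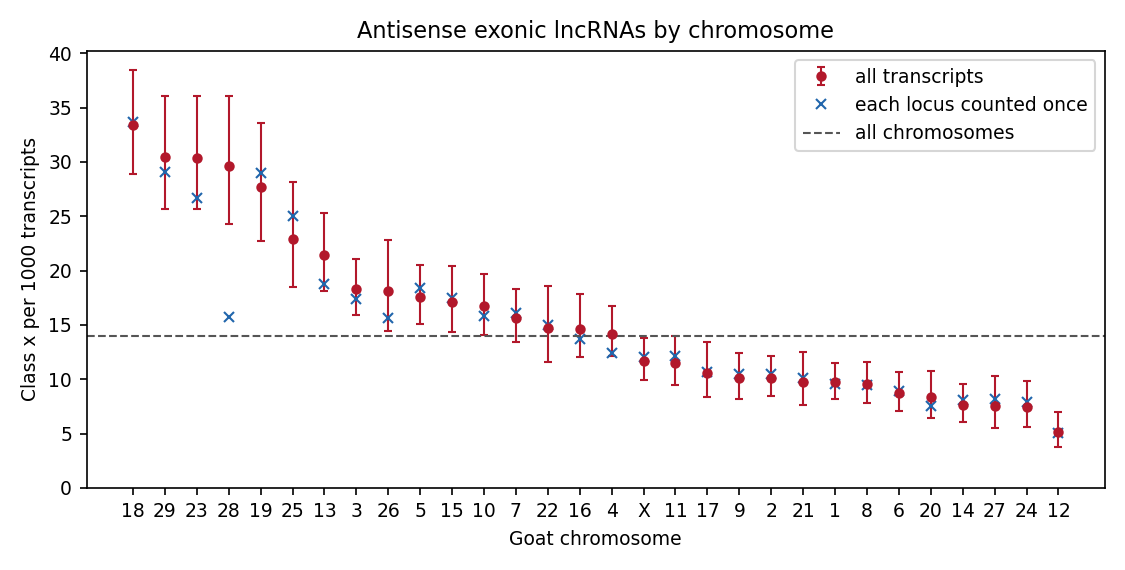
Class x transcripts per 1000 lncRNA transcripts (vertical axis) on each goat chromosome (horizontal axis, ordered by value). Red points carry 95% Wilson intervals, blue crosses count each locus once, and the dashed line is the value over all chromosomes, 14.0. Chromosome 28 alone has a cross outside the interval of its point.

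Class x loci lay close together in places. Joining loci with gaps of at most 100 kb gave 423 groups of at least 2 loci, which held 1081 loci (41.4%), and 24 groups of at least 5. The 5 largest groups all held hosts from families of related genes. Copies of such genes can be nearly identical, so the assignment of reads, and hence of antisense transcripts, among the copies is uncertain.

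The largest group, of 14 loci and 16 transcripts, spanned 724 kb of chromosome 18 (chr18:55184138-55908132). Its hosts included 6 genes of kallikrein-related peptidases, which are secreted serine proteases (KLK15, KLK4, KLK5, KLK10, KLK13 and KLK14), all in the first run. They also included SHANK1, a postsynaptic scaffold gene, IGLON5, and HAS1, a hyaluronan synthase gene. The group of 8 loci on chromosome 11 (chr11:45912375-46235107) lay over the interleukin 1 family, with antisense transcripts of the inflammatory cytokine genes IL1A and IL1B in the first run and of IL37, IL36G, IL36A and IL36B in the second. CKAP2L, a spindle protein gene, was also a host there. The group of 8 loci on chromosome 3 (chr3:10832194-11238207) held CD1C and CD1E, which encode proteins that present lipid antigens to T cells, and 6 hosts with LOC numbers.

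Both other large groups lay at genes of placental proteins. The 10 loci and 14 transcripts of chromosome 23 (chr23:31847775-32471973) included PRP1 and PRP6, prolactin-related proteins of the ruminant placenta, and all 14 transcripts were in the first run. The 11 loci and 14 transcripts of chromosome 29 (chr29:37187464-37627727) included PAG-2, one of the pregnancy-associated glycoproteins, which are aspartic protease relatives secreted by the ruminant trophoblast. The other 10 hosts there had LOC numbers only. Of the group's 11 host genes, 10 were matched in the ARS1.2 assembly, and in its gene order all 10 lay between PAG-11 and PAG-8. Those 10 were among the 17 genes listed between the same 2 markers. Of the 6 genes named PAG on that chromosome in ARS1.2, 1 was a host.

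A wider stretch of chromosome 29 was then looked at, chosen after the positions were seen (chr29:36299058-37627727, 1329 kb). It held 35 class x transcripts of 25 host genes, 26.9% of the 130 class x transcripts of the chromosome. All classes together had 152 transcripts there, which gives 230 class x transcripts per 1000. None of the 5 large groups held a call of the authors' comparison, and 1 call, a class x transcript, lay within this wider stretch. Of all lncRNAs 0.295% were called, so with this few transcripts the counts cannot show whether the groups or the stretch differ.

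**Figure D4:**
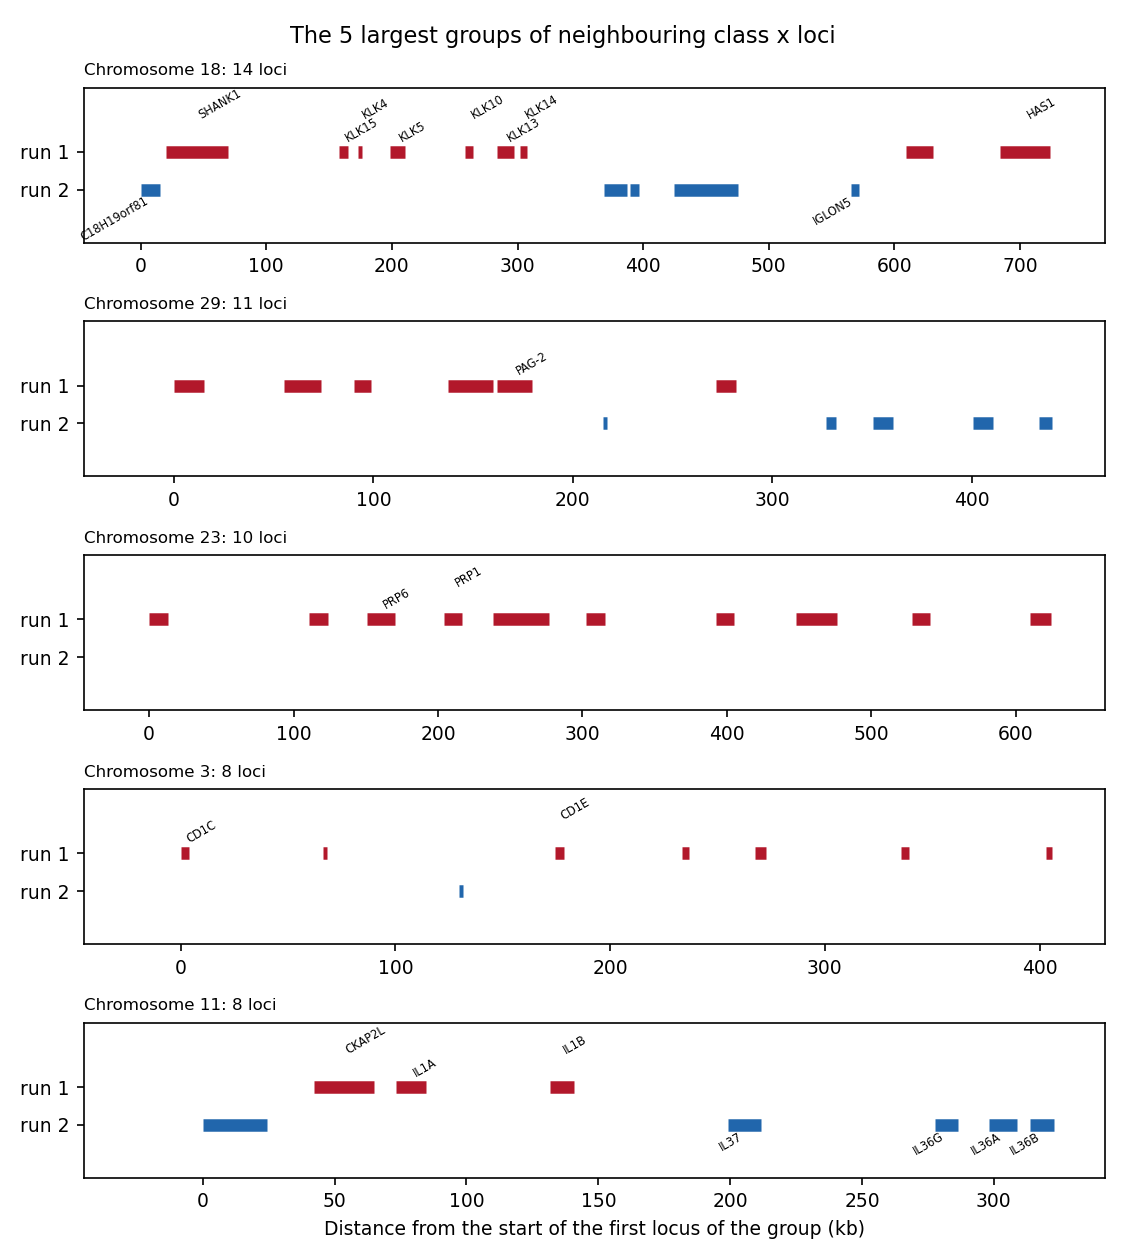
Class x loci (bars) of the 5 largest neighbour groups, drawn at their distance from the start of the first locus of each group (horizontal axis, kb) and by numbering run (upper row run 1, lower row run 2). Hosts with a LOC number are not written. All 10 loci of the chromosome 23 group lie in run 1, and the KLK loci of chromosome 18 also lie in run 1.

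The comparison of the stages asks which lncRNAs differ between receptive and pre-receptive endometrium. In the authors' deposited table, 2 class x transcripts were called, 0.0631% of the class (95% Wilson interval 0.0173 to 0.23), against 0.295% of all lncRNAs and 0.295% of class u (0.273 to 0.319). Class j had 8 calls, 1.38% of its transcripts (0.699 to 2.69). The difference between classes was not tested. In the authors' deposited table, q was below 0.05 for 12 lncRNAs (0.0053% of all), of which 0 were of class x, and p was below 0.01 for 263 (0.116% of all), of which 1 was. By direction, 1 class x transcript was higher in T, against 401 of all lncRNAs (0.177%), and 1 was lower, against 267 (0.118%).

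TCONS_00313944, antisense to LOC102181842 (chr29:36925622-36941308), was listed 8.78-fold higher in T. The authors' deposited table gave it a log2 change of 3.13, p = 0.00955 and q = 0.513. It was the call in the chromosome 29 stretch. In the ARS1.2 gene order its host lay 14 places after VPS37C, a gene of endosomal sorting, and 19 places before PAG-3, with no other gene between these markers that had a symbol of its own, transfer RNAs aside. A second class x transcript of the same host, TCONS_00313945, was not called. The authors' deposited table of pairs gave TCONS_00313944 the cis target LOC102191115, whose locus lay 14.6 kb away, and no direction or p was listed for the target transcript.

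TCONS_00155222 was antisense to UPB1, the gene of beta-ureidopropionase, the last enzyme of uracil breakdown and a source of beta-alanine (chr17:70648497-70676938). It was listed 2.9-fold lower in T. The authors' deposited table gave it a log2 change of -1.54, p = 0.0345 and q = 0.806. Another class x transcript of UPB1, TCONS_00155223, was not called. Of the UPB1 transcripts themselves, the authors' deposited table listed TCONS_00162244 as lower in T (p = 0.0349) and TCONS_00162243 as higher (p = 1). The Benjamini-Hochberg adjusted value of TCONS_00162244, over the 816 target transcripts with a direction in the authors' deposited tables, was 0.863. The antisense transcript and 1 transcript of the host were thus listed in the same direction, and neither passed an adjusted threshold of 0.05. Of the 267 target transcripts with p below 1 in the authors' deposited tables, 227 (85.0%) were listed lower, so a lower target was the usual listing.

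The other predicted targets of TCONS_00155222 were GUCD1, listed as LOC102183259, and SNRPD3, a core Sm protein gene of the spliceosome. GUCD1 lay 4.24 kb from the UPB1 locus, in the same run as the antisense transcript, and the authors' deposited table listed its transcript as lower in T (p = 0.0203). Over the same 816 transcripts its Benjamini-Hochberg adjusted value was 0.636. SNRPD3 lay 14.7 kb away, and the authors' deposited table listed 1 of its transcripts as higher (p = 0.617) and 1 as lower (p = 1). The pair with GUCD1 carries the 100 kb distance class although the gap is under 10 kb. In the authors' deposited enrichment tables, TCONS_00155222 appeared in 23 GO terms and KEGG pathways, of which 2 had p below 0.05. In the authors' deposited table, the GO term U7 snRNP had p = 0.0148 and beta-ureidopropionase activity had p = 0.0292. The first term listed 2 lncRNAs and the second this one alone.

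One call of another class had the same locus as a class x transcript. TCONS_00125322 was of class j, in the locus of MS4A13, a gene of the tetraspan MS4A family (chr15:78693527-78733354). The authors' deposited table gave it a log2 change of 15.33, p = 0.0436 and q = 0.894. Calls above 0 in both sets had a median absolute log2 change of 2.06, and 384 of all 668 calls had an infinite change. Whether the level of TCONS_00125322 in C was near 0 was not tested. Of the 657 class u calls, 20 (3.04%) lay within 10 kb of a class x locus, against 7066 (3.17%) of all class u transcripts. Within 100 kb the shares were 17.2% and 17.6%. Of the 20 near calls 8 were listed higher and 12 lower in T, and 1 had q below 0.05 in the authors' deposited table: TCONS_00312923, 8.51 kb from the class x transcript of EI24, an endoplasmic reticulum protein gene of autophagy, was listed at 0 in C.

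Host genes also occurred among the predicted targets of called lncRNAs of all classes. In the authors' deposited table of pairs, 47 of 387 target genes were class x hosts, which is 12.1% of the targets and 1.78% of the hosts. Of all named protein-coding genes in ARS1.2, 10.0% were hosts, and the difference was not tested. UPB1 is among the 47 as the target of its own class x transcript. The 74 transcripts of these 47 genes with a direction had p = 1 in 57 cases in the authors' deposited tables. Of the 17 others, 3 were listed higher in T and 14 lower (82.4%), against 40 higher and 227 lower (85.0%) of the 267 target transcripts in all with p below 1. A p below 0.05 was listed for 2 of the 74 (2.7%), against 4.41% of all 816, and 0 of the 74 passed after adjustment over the 816 transcripts. Besides the UPB1 transcript, this was TCONS_00308652 of PPA1, a cytosolic inorganic pyrophosphatase gene, which the authors' deposited table listed as lower in T (p = 0.00745). Its Benjamini-Hochberg adjusted value was 0.358. PPA1 had the class x transcript TCONS_00305028, which was not called. The called lncRNA paired with PPA1, TCONS_00308649 of class u, was listed with a log2 change of -1.59 and q = 0.894 by the authors' deposited table.

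The transcripts of the other hosts had larger p-values. The authors' deposited table listed PPP2R2B, a regulatory subunit gene of a protein phosphatase, as lower in T (p = 0.067). The matricellular protein gene CTGF was listed as higher by the authors' deposited table (p = 0.1), and the retinol carrier gene RBP2 as lower (p = 0.103). For CX3CR1, the fractalkine receptor gene of macrophages and lymphocytes, the authors' deposited table gave a higher level in T (p = 0.112). The authors' deposited table listed PIN4 as lower (p = 0.109). It also listed DSG3, CA13, C8H9orf85, C13H20orf96, XIRP1 and ZSCAN29 as lower, with p from 0.189 to 0.385. Each host is given by its transcript of smallest p. None of the class x transcripts of these hosts was called, against 0.0631% of the class.

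To describe which kinds of genes had an antisense transcript, host genes were matched by symbol or gene number to the RefSeq gene table of ARS1.2, which held 2281 (86.6%) of them. Of 16108 named protein-coding genes in that table, 1615 (10.0%) were hosts. Of 180 distinct genes on 15 lists, 15 were hosts (8.33%). The lists cover endometrial processes, developmental factors, the cell cycle, cell types and genes picked for named antisense or overlapping RNAs. The share is therefore not that of endometrial genes alone. In 6 of the lists none of the genes, 74 in all, was a host. These were gland secretion and conceptus elongation (0 of 22 genes), steroid and oxytocin receptors (0 of 13), adhesion and extracellular matrix (0 of 18), epithelium (0 of 10), smooth muscle (0 of 7) and endothelium (0 of 7).

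The 9 other lists had 1 to 4 hosts each. The interferon list had RSAD2, the gene of the antiviral protein viperin (1 of 15), and the prostaglandin list had PTGFR, the receptor of prostaglandin F2 alpha, listed as LOC102173625 (1 of 13). Growth factors FGF7, made by stroma for epithelium, and IGF2, a fetal growth factor, were hosts (2 of 16), and the cell cycle list had the cyclin gene CCNB2 (1 of 14). Among developmental factors the hosts were MSX2 and LHX9, both homeobox genes, and HAND2, a stromal mediator of progesterone action in mouse uterus (3 of 18). HAND2 was also the 1 host among 10 stromal markers. Its class x transcript TCONS_00431852 lay in a locus of only 2.31 kb (chr8:5703941-5706247).

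A further list was picked for antisense or overlapping RNAs named in human or mouse, and the orientation of those RNAs was not checked here. Of its 18 genes found, 4 were hosts: HAND2, KCNQ1, SOX2 and CDKN2B. KCNQ1, a potassium channel gene of an imprinted cluster, had 2 class x transcripts in a locus of 299 kb (chr29:46548715-46847329). CDKN2B, a cyclin-dependent kinase inhibitor gene, had 3 in 99.4 kb (chr8:21526595-21625990), and SOX2, a pluripotency factor gene, had 1 in 8.58 kb (chr1:83700363-83708944). Whether these goat transcripts correspond to the named human or mouse RNAs was not tested. Leukocyte markers had 3 hosts of 7, namely CD3E of T cells and MS4A1 and CD79A of B cells. The trophoblast list had TFAP2C, a trophoblast transcription factor gene (1 of 4). The host named PAG1, on chromosome 14, is a membrane adaptor gene that shares only its symbol with the pregnancy-associated glycoproteins, and it was not counted in that list. None of the class x transcripts of these list genes was called, against 0.0631% of class x and 0.295% of all lncRNAs. They are too few for the absence of a call to be read as a result. With lists of 4 to 22 genes, 1 gene moves a share by several points, and the lists were not tested.

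**Figure D5:**
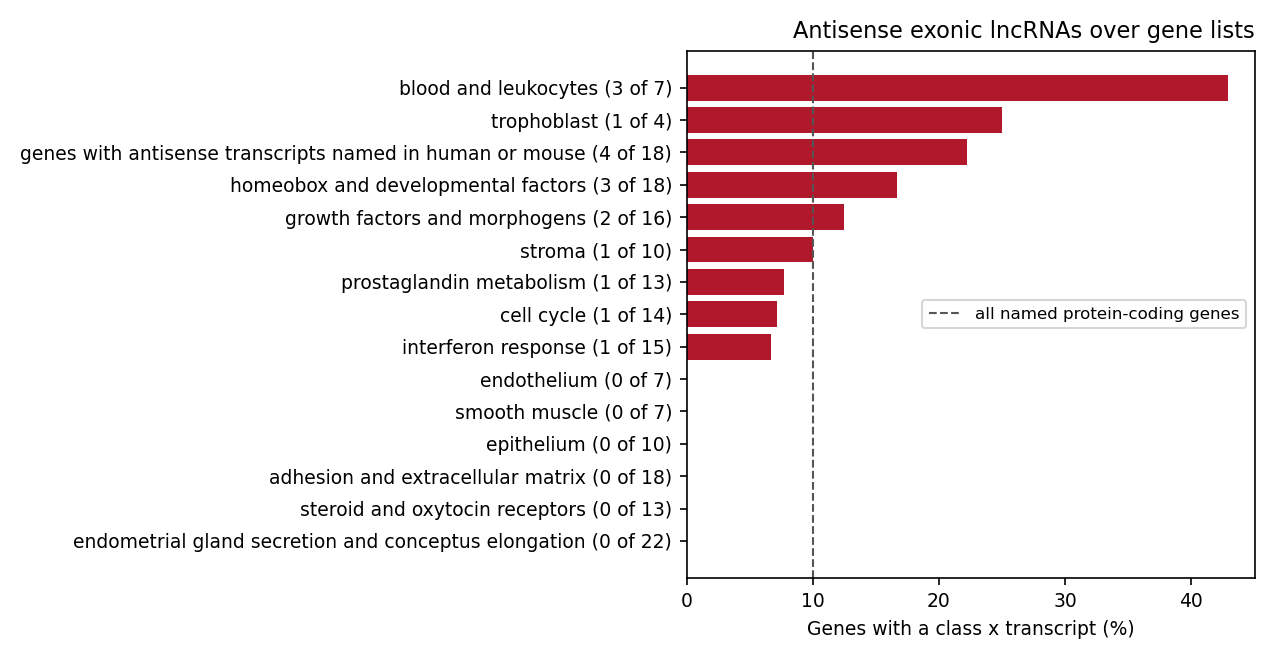
Share of genes with a class x transcript (horizontal axis, %) in each gene list, with hosts and genes found in brackets. The dashed line is the share of all named protein-coding genes, 10.0%, and 6 lists have no host.

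Gene families were also grouped by the letters before the first digit of the symbol, after host names had been seen, keeping the 80 groups with at least 20 genes. The median share of hosts over these groups was 8.03%. The highest shares were those of CLEC (C-type lectins) and MMP (matrix metalloproteinases), with 6 of 20 genes each (30.0%), and of IL (interleukins and their receptors), with 23 of 79 (29.1%). The MMP hosts were MMP3, MMP8, MMP12, MMP13, MMP16 and MMP20. All but MMP16, on chromosome 14, lay in one stretch of chromosome 15 (chr15:4657292-5067649), with their class x transcripts in the second run. The MMP share thus rests mostly on one neighbourhood of related genes. The interleukin hosts included IL6, IL7, IL5, IL17A, IL17F, IL21, IL22 and IL2RA. At the other end, 10 groups had no host, among them UBE (ubiquitin-conjugating enzymes, 0 of 38), VPS (vacuolar sorting proteins, 0 of 33), MYO (myosins, 0 of 25) and NUP (nucleoporins, 0 of 22). These shares are descriptions of the annotation and the assembly together, and no test was made on them.

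The coding potential scores of class x and class u lay close together. The median CPC score, negative for non-coding sequence, was -1.128 in class x (quartiles -1.203 and -1.062) and -1.131 in class u (quartiles -1.205 and -1.067). The median CNCI score, on a second scale with the same sign, was -0.0332 in class x and -0.0328 in class u. All class x scores were below 0, with a highest CPC score of -1.00011. No lncRNA of any class had a CPC score above -1.0 or a CNCI score above -0.0004096, so the deposited lncRNAs end at these values. Such scores may have been used to choose the lncRNAs. Neither the scores below 0 nor the closeness of the classes therefore bears on coding a second time. The lowest CNCI scores in class x were -3.68 for TCONS_00328983, antisense to LOC102189266, and -2.23 for TCONS_00373035, antisense to IFT27, an intraflagellar transport gene. Both were named after their values were seen. The lowest CPC score, -1.53, was that of TCONS_00153225, antisense to the translation factor gene DENR.

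The reference entries behind the class were mostly predictions. The nearest reference was a predicted protein (XP accession) for 1804 class x transcripts (56.9%), a predicted mRNA (XM) for 709 (22.4%), a predicted non-coding RNA (XR) for 189 (5.96%) and a bare gene number for 469 (14.8%). Median locus lengths were 19.1, 29.5, 21.7 and 14.1 kb in this order. The bare gene numbers give no coding status, so the share of the class antisense to non-coding genes is not known from these entries.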

How the data were processed

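RNA of 4 goat endometrium libraries was assembled by the authors. TopHat, TopHat2, Cufflinks and Cuffdiff were used, per the submitters' processing notes, with no version or role given. For genome build and filters, the sources used here give no statement. Each transcript carries a CPC score and a CNCI score computed by the authors. Fold changes were deposited on the log2 scale as set T over set C. All p-values and q-values (for lncRNAs, target transcripts, GO terms and KEGG pathways) were deposited by the authors. The distance class of a cis target is also as deposited by the authors.

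Values in 6 columns (4 of single libraries and 2 of the sets) carry the letters T and C but matched no sample label and no labelled stage, and they were left out of every step. The planned limma test on them, and every comparison that needs a spread between libraries, was therefore not run, and depth is unknown here.

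From the deposited tables, class x rows were counted, loci parsed as deposited, loci joined at gaps of at most 100 kb, and numbering runs read from transcript numbers. Runs, grouping and intervals were tested on simulated data. Shares carry 95% Wilson intervals for counting error only. Target p-values were adjusted by Benjamini-Hochberg. RefSeq's ARS1.2 gene table served for names and gene order only. Of 2244 matched host genes with a chromosome in both, 2232 (99.5%) were on the same one.

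The members and lists were chosen with earlier results of these data known. Named were all class x calls and their targets, the 5 longest loci, the 5 largest groups, the 10 hosts with most transcripts and every host on a gene list. Hosts with a target transcript of p below 1 in the authors' deposited tables were named as well, outside that rule. Alternatives were loci counted once, assembled gene identifiers, stricter p and q thresholds, other distance classes and gaps, and leaving out short loci. The tools were Python 3.11.15 with scipy 1.17.1, pandas 2.3.3, numpy 2.4.6 and matplotlib 3.10.9.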

Additional observations from a re-analysis of the deposited data

How the results depend on the processing

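Counting each locus once left 2611 class x units and counting assembled gene identifiers left 3141, both within 1.5 times the 3171 transcripts. With the longest locus of each stretch taken once, the median locus length was 18.0 kb, against 20.3 kb over transcripts and an interval of 18.9 to 21.9, since long loci hold more transcripts. By chromosome, counting loci once kept 29 values within their intervals and moved 1, chromosome 28, to 15.7. With q below 0.05, 0% of class x was called in the authors' deposited table (2 had an unadjusted p below 0.05 there). With p below 0.01, 1 of the calls was left, or 0.0315%. Neither call was infinite, so the directions stood. With pairs of the 1 kb class only, or of 1 and 10 kb, 50% of the calls had a target, against 100%. With gaps of at most 10 kb there were 123 neighbour groups, the largest of 4 loci, against 423 at 100 kb, and with 1000 kb there were 432, the largest of 105. The share of class x below the median of all transcripts was 49.3% for CPC and 50% for CNCI. No paired analysis was possible because the library columns, left out for want of a matching label, carry no replicate number of the labels. The replicate block, the leaving out of each library and the other planned settings of the limma test were not run, since they need those columns. Without counts, depth and its limits are unknown.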
